A study of Mus musculus with 16 samples.

Results

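The genes described here are the myogenic regulatory factors Myf5, Myod1, Myog and Myf6, the MEF2 factors Mef2a, Mef2c and Mef2d, and the upstream factors Six4 and Pax3. They were taken as every probe whose gene name in the scanner files is 1 of these 9 names, which gave 14 distinct probes of 60 bases each. The array names 34836 genes, of which 20317 passed the filter on low signal, all 9 of these among them. Of the 14 probes, 13 passed that filter, and the probe left out is 1 of the 2 for Pax3.

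RNA of satellite cell-derived myoblasts from male C57Bl/6J mice aged 11 to 13 weeks, with no further genotype or drug, was measured on 16 one-colour arrays, 4 in each of 4 groups. Dispersed myoblasts grew on gelatin-coated dishes and were collected at 48 or 72 hr after isolation, with 1 mouse per replicate. Myofiber-associated (Mf-A) myoblasts grew on explanted muscle fibers for the same times and were then stripped off with trypsin, with 2 mice per replicate, and replicate 4 at 48 hr is a pool of 2 preparations. Every Mf-A array lies on 1 slide and every dispersed array on the other, so that culture and slide cannot be told apart, while the times were compared within a slide. On both slides the 72-hr arrays lie in columns 1 and 2 and the 48-hr arrays in columns 3 and 4. Time and slide column therefore cannot be told apart either. RNA integrity numbers were at least 7.5 on every sample, and 54.0% to 63.5% of probes were well above background on an array. Precision is limited by how many arrays there are.

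Skeletal muscle identity is set by 4 related basic helix-loop-helix proteins that bind E-boxes together with E proteins. In satellite cells, Myf5 and Myod1 mark committed and proliferating myoblasts, Myog switches on terminal differentiation, and Myf6 (also called MRF4) is the member that mature fibers keep. MEF2 proteins bind A/T-rich sites and act with these factors on contractile genes, Six4 belongs to the sine oculis homeobox family that binds MEF3 sites in muscle promoters, and Pax3 specifies muscle precursors in the embryo and persists in a subset of adult satellite cells.

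The labelled cell type was checked against marker genes. The 13 satellite cell and myoblast markers, which include Myf5 and Myod1, were each well above background on some array of both cultures, with Itga7 the brightest. Their summed signal was 17.36 to 17.44 (log2) in dispersed cells at 48 hr, 17.28 to 17.44 at 72 hr, 17.59 to 17.83 in Mf-A cells at 48 hr and 17.50 to 17.70 at 72 hr. The sums follow the brightest genes: of the 12 tested, 2 were higher and 4 lower in Mf-A cells at 48 hr (median -0.53, against 43.2% of all genes passing and a median of -0.12). At 72 hr 4 were higher and 1 lower (median 0.41, against 27.1% of all genes and a median of -0.02). Because the list holds 2 of the 9 genes described, this check is not independent of them.

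The Mf-A arrays also carried a strong signal of adult muscle fiber genes, although the labels describe these preparations as free of fiber RNA. Of 19 such genes, the glycolytic enzyme gene Eno3 was the brightest on average over the 16 arrays of both cultures. Their log2 summed signal was 21.40, 21.07, 21.34 and 20.85 on Mf-A replicates 1 to 4 at 48 hr. At 72 hr it was 19.22, 20.49, 18.81 and 20.78, low on replicates 1 and 3 and high on replicates 2 and 4. Dispersed arrays held 16.52 to 16.96 at 48 hr and 16.42 to 16.69 at 72 hr. No gene of the list was at background on all arrays of either culture. At 48 hr, 18 of the 19 were higher in Mf-A cells at an adjusted p under 0.01, where 43.2% of all genes passed in either direction (median log2 difference 5.79, against -0.12 over all genes tested). At 72 hr 15 of 19 passed, against 27.1% (median 5.11, against -0.02). Several of the 9 factors move with this signal, and its part in their values was not tested. In RNA from a whole culture, fewer cells of a type and less RNA per cell cannot be told apart.

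Between 48 and 72 hr, dispersed myoblasts changed 5 of the 9 genes at an adjusted p under 0.01: Myog, Six4, Pax3 and Myf5 rose and Mef2c fell. Over all genes tested 13.7% passed that threshold, and at an adjusted p under 0.05 6 of 9 did, against 26.9%. Across probes 4 of 13 passed, against 12.4% of 28197 probes. In Mf-A myoblasts 0 of 9 genes and 0 of 13 probes passed in the limma fit, against 5.48% of genes and 5.43% of probes. That count depends on the fit: in a single limma fit of all 16 arrays, which shares the spread of both cultures, 6 of 9 passed in Mf-A cells (Myod1, Mef2a, Mef2c, Mef2d, Six4 and Pax3) and 2 of 9 in dispersed cells, beside 5780 and 999 of the 20317 genes. With time in Mf-A cells, 8 of the 9 had an unadjusted p under 0.05 in the separate fit, against 41.4% of all genes. At an adjusted p under 0.05 5 of 9 passed (Myod1, Six4, Pax3, Mef2d and Mef2c), against 22.6% of all genes. The difference in change between the cultures was tested for itself. It passed for Myog alone among the 9, against 3.45% of genes, and for 1 of 13 probes, against 3.12%. At an adjusted p under 0.05 Mef2d passed as well, 2 of 9 against 15.4%.

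**Figure D1:**
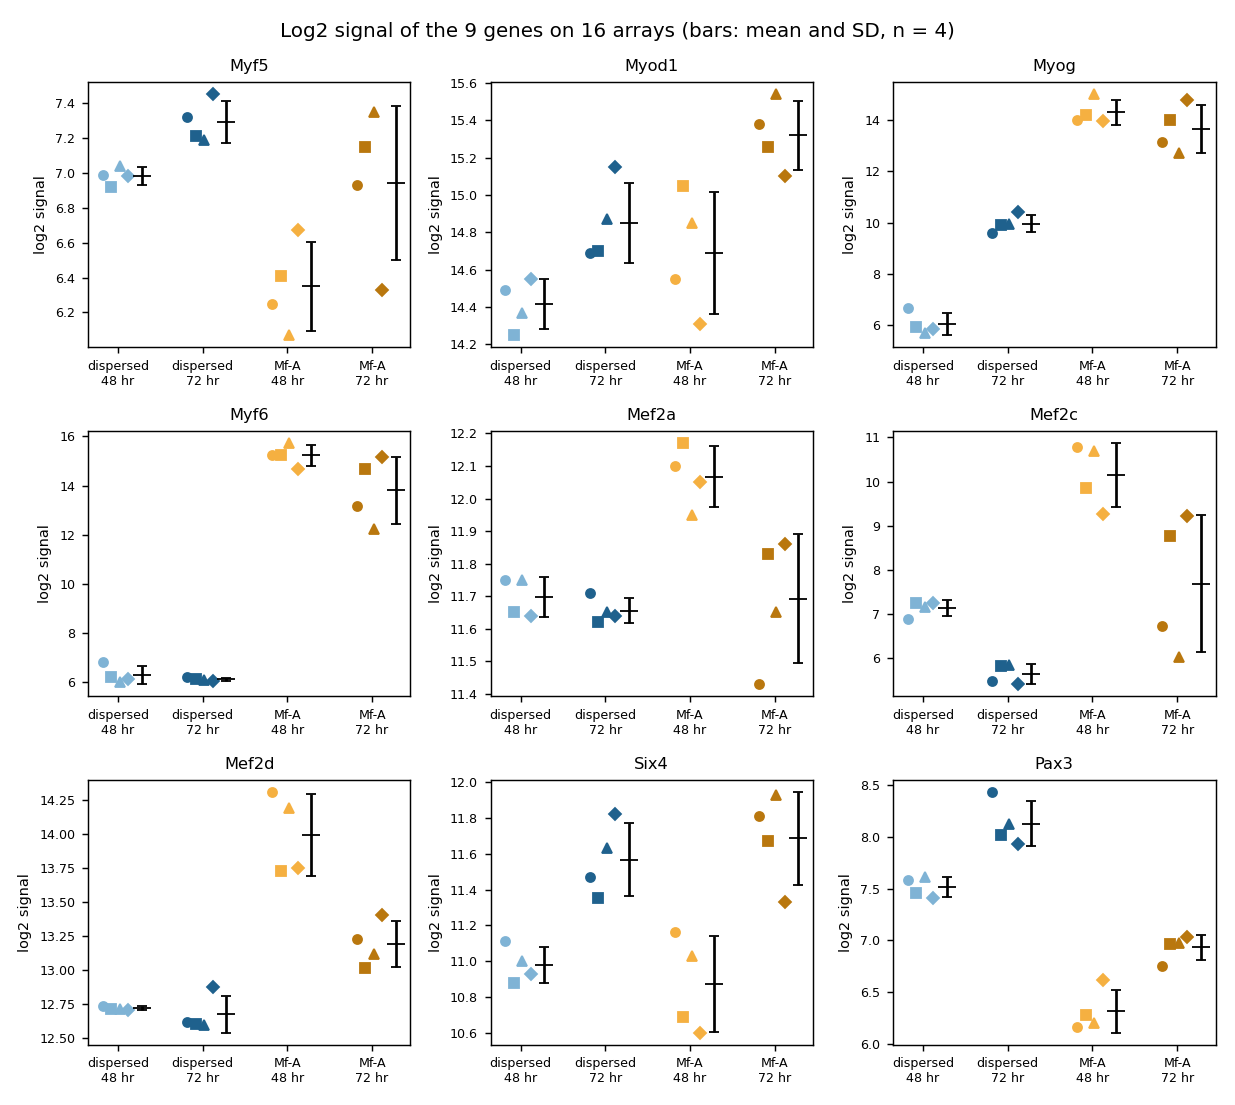
Log2 signal (vertical axes) of the brightest probe of each of the 9 genes on every array of the 4 groups. Circles, squares, triangles and diamonds are replicates 1 to 4, and bars give the mean and SD (n = 4). Myog and Myf6 sit above 12 on every Mf-A array, and Myog climbs from about 6 to about 10 in dispersed cells.

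Myog encodes myogenin, the factor that commits myoblasts to differentiate. Its log2 signal in dispersed cells was 6.67, 5.94, 5.72 and 5.86 at 48 hr and 9.60, 9.90, 9.95 and 10.40 at 72 hr. Every 72-hr array lay above every 48-hr array, a 15.1-fold rise (log2 change 3.92, SE 0.24, adjusted p = 4.79e-05), with a smaller log2 change of 3.04 under a normexp background. Mf-A cells already had 14.01, 14.21, 15.00 and 13.98 at 48 hr and had 13.14, 14.02, 12.70 and 14.80 at 72 hr. Their time groups overlapped, with a log2 change of -0.64 (SE 0.45, adjusted p = 0.311) that was -0.32 without 72-hr replicate 3 and -1.02 without replicate 4. The change was larger in dispersed cells by 4.55 (SE 0.54, adjusted p = 0.000482). Thus the groups order as dispersed 48 hr, dispersed 72 hr, then both Mf-A groups, which did not differ beyond their spread.

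The gap between the cultures for Myog narrowed with time. At 48 hr Mf-A cells stood 8.25 higher on the log2 scale (SE 0.28, adjusted p = 8.08e-07), a 305-fold difference (7.28 with a normexp background), and at 72 hr 3.70 higher (SE 0.43, adjusted p = 0.000392), or 13.0-fold. In the deposited table of log ratios, where each 72-hr array is set against the averaged 48-hr arrays of that culture, dispersed replicates gave 3.19, 3.50, 3.61 and 4.05 for Myog. The Mf-A replicates gave -1.27, -0.38, -1.69 and 0.40, so that replicate 4 went up and the others down.

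The promoter of Myog is shown because this gene alone differed between the cultures in its change and because its proximal promoter is the textbook meeting point of the other factors. The RefSeq sequence (GRCm38.p6, chr1:134289754-134290053, plus strand) covers 250 bases before to 50 after the start. Capitals mark matches to the E-box CANNTG, which takes in the CAGCTG form, to the MEF3 site TCAGGTTTC and to the MEF2 site, each searched on both strands.
Myog: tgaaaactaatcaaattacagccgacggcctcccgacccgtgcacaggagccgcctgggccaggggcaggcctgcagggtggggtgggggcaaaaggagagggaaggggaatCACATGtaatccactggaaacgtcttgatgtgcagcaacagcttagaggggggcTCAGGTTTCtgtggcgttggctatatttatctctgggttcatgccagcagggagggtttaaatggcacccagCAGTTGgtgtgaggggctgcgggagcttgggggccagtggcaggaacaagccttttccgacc
The window holds E-boxes from -138 to -133 and from -12 to -7 relative to the start and a MEF3 match from -84 to -76, with no overlap between them, and no CAGCTG. The MEF2 search used a strict pattern that nothing here met in every base, and A/T-rich letters such as those after the MEF3 match were not scored, so it does not show that a MEF2 site is absent. Of 32851 promoters of this length, 72.3% hold an E-box, 16.3% CAGCTG, 3.19% a MEF2 match and 0.429% a MEF3 match. Such matches are descriptions of letters only.

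RefSeq promoters were at hand for 6 of the 9 genes, 9 in all, and none for Myod1, Myf6 and Pax3. Six4, whose own protein binds such sites, has a MEF3 match at 1 of its 2 starts, from -99 to -91 on the opposite strand. Mef2a has a MEF2 match that spans its start, from -2 to 8. Of the 3 Mef2c starts, 1 holds 2 E-boxes, another 1 and the last 0, and the windows of Myf5 and Mef2d hold no match to any motif searched.

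Myf6 separated the cultures at both times. Dispersed cells had 6.85, 6.24, 6.03 and 6.12 at 48 hr and 6.21, 6.13, 6.11 and 6.06 at 72 hr, well above background on every array. Mf-A cells had 15.25, 15.25, 15.72 and 14.68 at 48 hr and 13.15, 14.69, 12.23 and 15.15 at 72 hr. The cultures did not overlap at either time, with a difference of 8.92 at 48 hr (SE 0.25, adjusted p = 4.27e-07) and of 7.67 at 72 hr (SE 0.58, adjusted p = 5.73e-05), 483-fold and 204-fold. A normexp background gave smaller differences, 7.96 and 6.64. Within cultures the time groups overlapped, and the log2 change was -0.18 in dispersed cells (SE 0.17, adjusted p = 0.472) and -1.42 in Mf-A cells (SE 0.61, adjusted p = 0.113), with a difference between them of 1.24 (SE 0.68, adjusted p = 0.206). The Mf-A change was -0.90 without 72-hr replicate 3 and -1.87 without replicate 4. Without the same arrays the difference between the changes was 0.72 and 1.69.

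The Mf-A replicates at 72 hr ordered alike for Myf6 and for the summed fiber signal: replicate 3 lowest, then 1, 2 and 4. Over the 8 Mf-A arrays, r between Myf6 and the fiber sum was 0.978, and over the 8 dispersed arrays it was 0.832. The latter rests on dispersed 48-hr replicate 1, without which r was 0.00674. Myog followed the same order at 72 hr (r = 0.866 in Mf-A cells, -0.289 in dispersed cells). These r values are descriptions over arrays of 2 times in a culture. In dispersed cells they hold for the sum alone. That sum stayed nearly level with time, while 17 of the 19 fiber genes had changes below 0 (median -1.63). The SD of Myf6 among the 4 Mf-A arrays at 72 hr, 1.35, lay at the 99.2 percentile of all genes tested, and that of Myog, 0.94, at 97.5, where the median gene had 0.18.

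**Figure D2:**
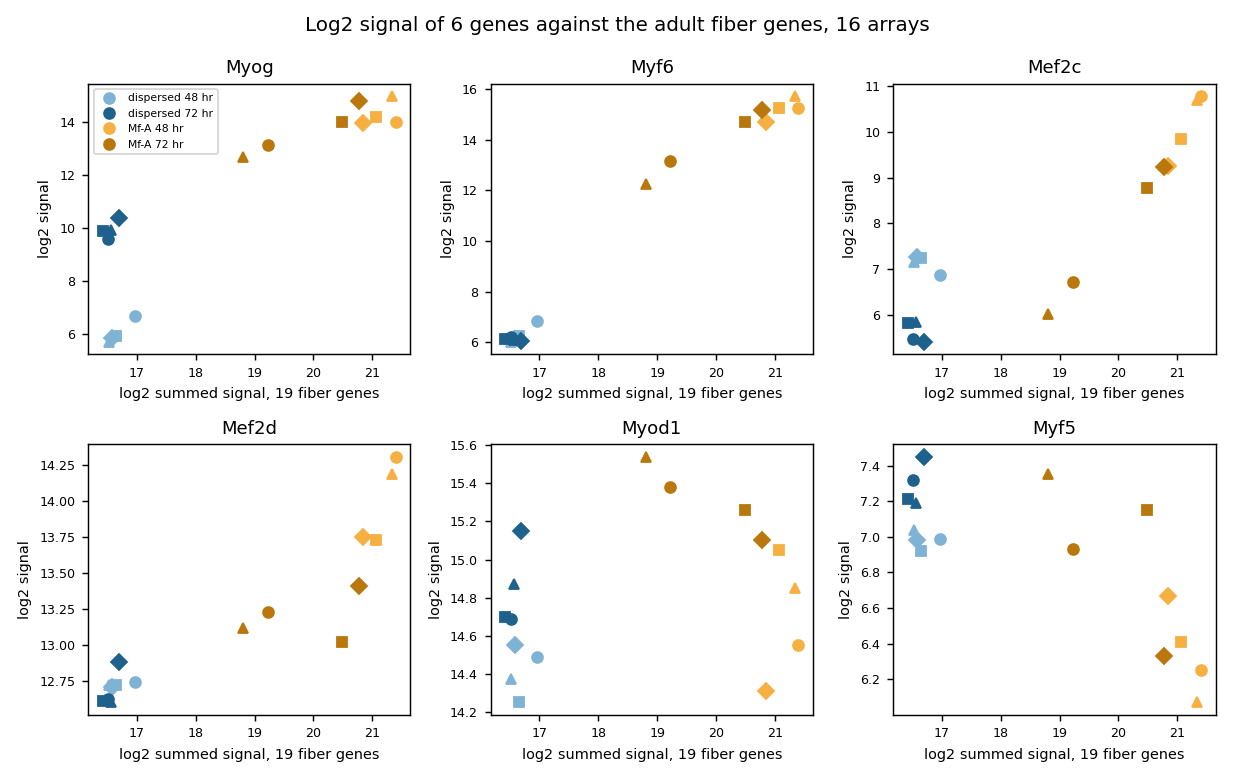
Log2 signal of 6 of the genes (vertical axes) against the log2 summed signal of 19 adult fiber genes (horizontal axes) on each of the 16 arrays. Colours mark the groups and circles, squares, triangles and diamonds replicates 1 to 4. Within Mf-A arrays Myf6 and Mef2c lie high where the fiber signal is high (r = 0.978 and 0.993, n = 8), and Myod1 and Myf5 lie low (r = -0.750 and -0.842).

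Myod1 encodes MyoD, the factor that can turn other cell types into muscle, and was well above background on every array. Dispersed cells had 14.49, 14.25, 14.37 and 14.55 at 48 hr and 14.69, 14.70, 14.87 and 15.15 at 72 hr. Mf-A cells had 14.55, 15.05, 14.85 and 14.31 at 48 hr and 15.38, 15.26, 15.54 and 15.10 at 72 hr. In neither culture did the time groups overlap, yet neither change passed 0.01: 0.44 in dispersed cells (SE 0.11, adjusted p = 0.0250) and 0.63 in Mf-A cells (SE 0.17, adjusted p = 0.0359, or 0.00462 in the single fit of all arrays). The exact permutation test gave p = 0.0286 for each, the smallest that 4 against 4 arrays allow. The changes differed by -0.19 (SE 0.22, adjusted p = 0.548). Mf-A minus dispersed cells gave 0.28 at 48 hr (adjusted p = 0.165) and 0.47 at 72 hr (adjusted p = 0.0212), and the latter passed without dispersed 72-hr replicate 4 (0.57, adjusted p = 0.00777).

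Myf5 is the earliest of these factors in the embryo. Dispersed cells had 6.99, 6.92, 7.04 and 6.98 at 48 hr and 7.32, 7.21, 7.19 and 7.45 at 72 hr. All 72-hr arrays were higher, a rise of 0.31 (SE 0.06, adjusted p = 0.00981) that lay close to the threshold. It missed it in the fit over probes (adjusted p = 0.0110), without any 1 of the 8 arrays (adjusted p from 0.0104 to 0.0316) and with most other settings (adjusted p from 0.0106 with quantile normalization alone to 0.322 in a single fit of all 16 arrays). Mf-A cells had 6.25, 6.41, 6.07 and 6.67 at 48 hr and 6.93, 7.15, 7.35 and 6.33 at 72 hr, where replicate 4 fell among the 48-hr values (change 0.59, SE 0.23, adjusted p = 0.0886). The changes of the cultures differed by -0.28 (SE 0.25, adjusted p = 0.443), or by -0.14 without Mf-A 72-hr replicate 3 and -0.48 without replicate 4. A normexp background gave 0.37 for the change in Mf-A cells and -0.16 for the difference.

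At 48 hr Myf5 was lower in Mf-A than in dispersed cells by 0.63, with no overlap (log2 difference -0.63, SE 0.12, adjusted p = 0.00274). That call was lost without Mf-A 48-hr replicate 1 (-0.60) and without dispersed 48-hr replicate 3 (adjusted p = 0.0105), with scaling to the 75th percentile (-0.52, adjusted p = 0.0158) and with slide row as a block (adjusted p = 0.0117), and a normexp background gave a smaller difference of -0.37. At 72 hr the difference was -0.35 (SE 0.20, adjusted p = 0.190). It was -0.15 without Mf-A 72-hr replicate 4, -0.49 without replicate 3 and -0.21 with a normexp background. Myf5 and Myf6 are neighbours in the genome, and their probes lie at chr10:106919974-106920033 and chr10:106930237-106930296 (mm9, minus strand). At 48 hr the former was lower and the latter higher in Mf-A cells, and in Mf-A arrays their r with the fiber sum had opposite signs (-0.842 and 0.978).

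Mef2c, a MEF2 gene needed for sarcomere organisation, was the only MEF2 gene that changed with time in dispersed cells. It is read by a probe whose 60 bases span 2238 bases of the genome (chr13:83772788-83775025, mm9, plus strand) and thus joins exons on either side of an intron. The same holds for a Mef2d probe that spans 347 bases (chr3:87972214-87972560, plus strand). Both are shown because they can pair in full only with spliced RNA, and no base is capitalised.
Mef2c: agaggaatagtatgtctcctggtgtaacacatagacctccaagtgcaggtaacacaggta
Mef2d: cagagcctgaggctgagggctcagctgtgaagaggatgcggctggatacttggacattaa
In dispersed cells Mef2c had 6.88, 7.25, 7.16 and 7.26 at 48 hr and 5.48, 5.83, 5.84 and 5.42 at 72 hr. The groups did not overlap, a 2.82-fold fall (log2 change -1.50, SE 0.13, adjusted p = 0.000169), with a smaller log2 change of -0.86 under a normexp background. The fall missed the threshold in a single fit of all 16 arrays (adjusted p = 0.117), where the spread of the Mf-A arrays is shared.

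Mf-A cells had more Mef2c at 48 hr, with 10.78, 9.85, 10.69 and 9.26. At 72 hr they had 6.73, 8.77, 6.02 and 9.23, so that replicates 2 and 4 stayed near the 48-hr values and replicates 1 and 3 lay below them by a wide margin. The time groups did not overlap, and the change of -2.46 (SE 0.73) had an adjusted p of 0.0448, or of 0.00344 in the single fit of all arrays. Its difference from the change in dispersed cells, 0.96 (SE 0.80, adjusted p = 0.406), was 0.40 without Mf-A 72-hr replicate 3 and 1.48 without replicate 4. The order of the 4 replicates at 72 hr was that of the fiber sum, r over the 8 Mf-A arrays was 0.993, and the SD of 1.55 at 72 hr lay at the 99.6 percentile of all genes. At 48 hr Mf-A cells were higher by 3.01 (SE 0.32, adjusted p = 0.000135, 8.04-fold). At 72 hr the difference was 2.04 (SE 0.68, adjusted p = 0.0383), which passed without Mf-A 72-hr replicate 3 (2.61, adjusted p = 0.00777) and in the single fit of all arrays (adjusted p = 0.00891) and was 1.35 with a normexp background.

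Mef2d, a MEF2 gene read by 3 probes, gave close values in dispersed cells at both times. Its brightest probe had 12.74, 12.72, 12.72 and 12.71 at 48 hr and 12.62, 12.61, 12.60 and 12.88 at 72 hr (change -0.05, SE 0.07, adjusted p = 0.660). In Mf-A cells it had 14.31, 13.73, 14.19 and 13.75 at 48 hr and 13.23, 13.02, 13.12 and 13.41 at 72 hr. All 4 later arrays lay below the earlier ones, and the change of -0.80 (SE 0.16) had an adjusted p of 0.0137. It passed without Mf-A 48-hr replicate 4 (-0.89, adjusted p = 0.00893) and in the single fit of all arrays (adjusted p = 0.000293). The difference between the cultures in this change, 0.76 (SE 0.18, adjusted p = 0.0164), passed without that array (0.84, adjusted p = 0.00497), without Mf-A 48-hr replicate 2 (0.84, adjusted p = 0.00889) and without Mf-A 72-hr replicate 4 (0.83, adjusted p = 0.00690).

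The level of Mef2d was higher in Mf-A cells by 1.27 at 48 hr (SE 0.14, adjusted p = 0.000152) and by 0.52 at 72 hr (SE 0.11, adjusted p = 0.00542), with no overlap. The latter call was lost without Mf-A 72-hr replicate 1 (adjusted p = 0.0149) or without dispersed 72-hr replicate 1, 2 or 3 (0.0189, 0.0198 and 0.0198). It was also lost with no filter on low signal (adjusted p = 0.0114), with slide row as a block (0.0143) and with the mean of all probes (0.80, adjusted p = 0.0232). The other probes of Mef2d varied with the brightest one over the 16 arrays (r = 0.909 and 0.913) and with each other (r = 0.982). In Mf-A cells at 72 hr the probe printed above had 8.76, 9.68, 8.54 and 10.09 and the remaining one 9.78, 10.73, 9.61 and 11.18, both in the order of the fiber sum (r = 0.993 and 0.978), which the brightest probe did not follow (r = 0.767).

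Mef2a, expressed in many tissues, moved little and its probes did not move together. The brightest probe had 11.75, 11.65, 11.75 and 11.64 in dispersed cells at 48 hr and 11.71, 11.62, 11.65 and 11.64 at 72 hr (change -0.04, SE 0.04, adjusted p = 0.534). In Mf-A cells it had 12.10, 12.17, 11.95 and 12.05 at 48 hr and 11.43, 11.83, 11.65 and 11.86 at 72 hr with no overlap (change -0.37, SE 0.12, adjusted p = 0.0520, or 0.00351 in the single fit of all arrays). The changes differed by 0.33 (SE 0.12, adjusted p = 0.0749). Neither held over the probes: with the mean of all probes the change in Mf-A cells was -0.05 (adjusted p = 0.708) and the difference 0.00, and the other probes changed by 0.21 and 0.02. At 48 hr it was higher in Mf-A cells by 0.37 (SE 0.07, adjusted p = 0.00306), and at 72 hr the difference was 0.04 (SE 0.10, adjusted p = 0.783). The call at 48 hr was lost without Mf-A 48-hr replicate 1 (adjusted p = 0.0103), without dispersed 48-hr replicate 2 or 4 (0.0134 and 0.0126), with slide row as a block (0.0102) and with the mean of all probes (0.22, adjusted p = 0.0424).

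The other Mef2a probes gave differences at 48 hr of -0.01 (adjusted p = 0.925) and 0.29 (adjusted p = 0.0409), and at 72 hr of 0.21 (adjusted p = 0.111) and 0.41 (adjusted p = 0.00403). Thus a different probe passed at each time. Over the 16 arrays r between Mef2a probes was -0.344, 0.395 and 0.597, against 0.909 to 0.982 for Mef2d and 0.974 for Pax3. Mef2b, a further MEF2 gene outside the 9, had means of 5.99 and 5.97 in dispersed cells and 6.43 and 6.35 in Mf-A cells at 48 and 72 hr.

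**Figure D3:**
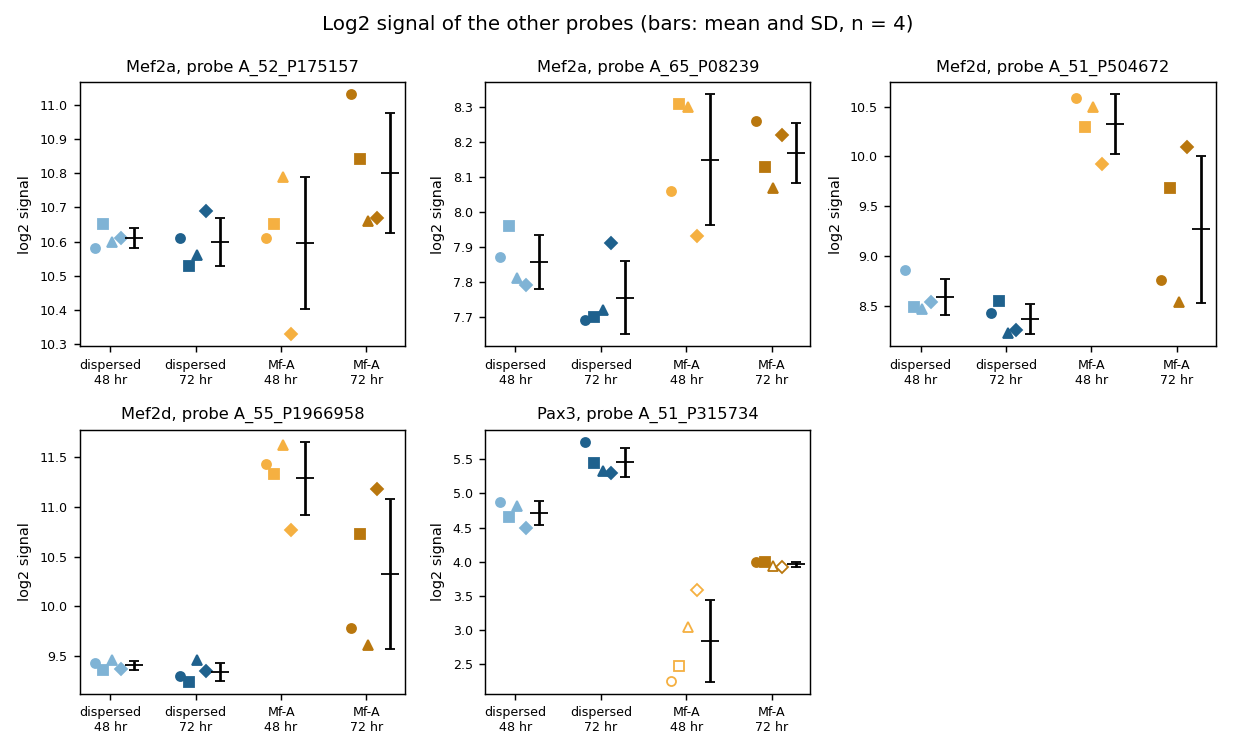
Log2 signal (vertical axes) on each array of the 4 groups for the 5 probes that do not stand for their gene. Symbols are replicates as in the plot of the 9 genes, open symbols are arrays where the probe was not well above background, and bars give mean and SD (n = 4). The Mef2d probes at 72 hr spread from 8.54 to 10.09 and from 9.61 to 11.18 in Mf-A cells, and the Pax3 probe is open on all 4 Mf-A arrays at 48 hr.

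Six4 rose in dispersed cells and overlapped between the cultures at each time. Dispersed cells had 11.11, 10.88, 11.00 and 10.93 at 48 hr and 11.47, 11.35, 11.63 and 11.82 at 72 hr, with no overlap (change 0.59, SE 0.10, adjusted p = 0.00479). The call was lost without dispersed 72-hr replicates 1 or 3 (adjusted p = 0.0108 and 0.0170) and without dispersed 48-hr replicates 2, 3 or 4 (0.0173, 0.0146 and 0.0159). No filter on low signal (0.0132) and a single fit of all arrays (0.0202) ended it too. Mf-A cells had 11.16, 10.69, 11.03 and 10.60 at 48 hr and 11.81, 11.67, 11.93 and 11.33 at 72 hr, again without overlap. The change there was 0.82 (SE 0.17, adjusted p = 0.0161), and it passed without Mf-A 72-hr replicate 4 (0.93, adjusted p = 0.00900) and in the single fit (adjusted p = 0.000728). The changes differed by -0.23 (SE 0.21, adjusted p = 0.451). In level, Mf-A minus dispersed cells was -0.11 at 48 hr (adjusted p = 0.493) and 0.12 at 72 hr (adjusted p = 0.551).

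Pax3 had nearly equal changes in the cultures and a different level. Its brighter probe had 7.58, 7.46, 7.61 and 7.41 in dispersed cells at 48 hr and 8.43, 8.02, 8.12 and 7.93 at 72 hr, a rise of 0.61 (SE 0.11, adjusted p = 0.00478). Mf-A cells had 6.17, 6.28, 6.20 and 6.62 at 48 hr and 6.75, 6.97, 6.98 and 7.03 at 72 hr, all later arrays above the earlier ones (change 0.61, SE 0.13, adjusted p = 0.0143). The changes differed by -0.01 (SE 0.17, adjusted p = 0.986). Every Mf-A array lay below every dispersed array, with differences of -1.20 at 48 hr (SE 0.11, adjusted p = 7.24e-05) and -1.19 at 72 hr (SE 0.12, adjusted p = 0.000191). A normexp background gave -0.79 and -0.89, and 0.36 for the change in Mf-A cells.

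The call of Pax3 over time in dispersed cells was lost without dispersed 72-hr replicates 2 or 3 (adjusted p = 0.0107 and 0.0156), without any 1 of the 4 dispersed 48-hr arrays (0.0109, 0.0174, 0.0113 and 0.0157) and with no filter on low signal (0.0133). The one in Mf-A cells was gained without 48-hr replicate 4 (0.72, adjusted p = 0.00349) and in the single fit of all arrays (adjusted p = 0.00110). The dimmer probe of Pax3 was well above background on 0 of 4 Mf-A arrays at 48 hr, 2 of 4 at 72 hr and all dispersed arrays, where it had means of 4.72 and 5.45. Dispersed cells at 48 hr were thus at least 1.98-fold higher than Mf-A cells by that probe.

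**Figure D4:**
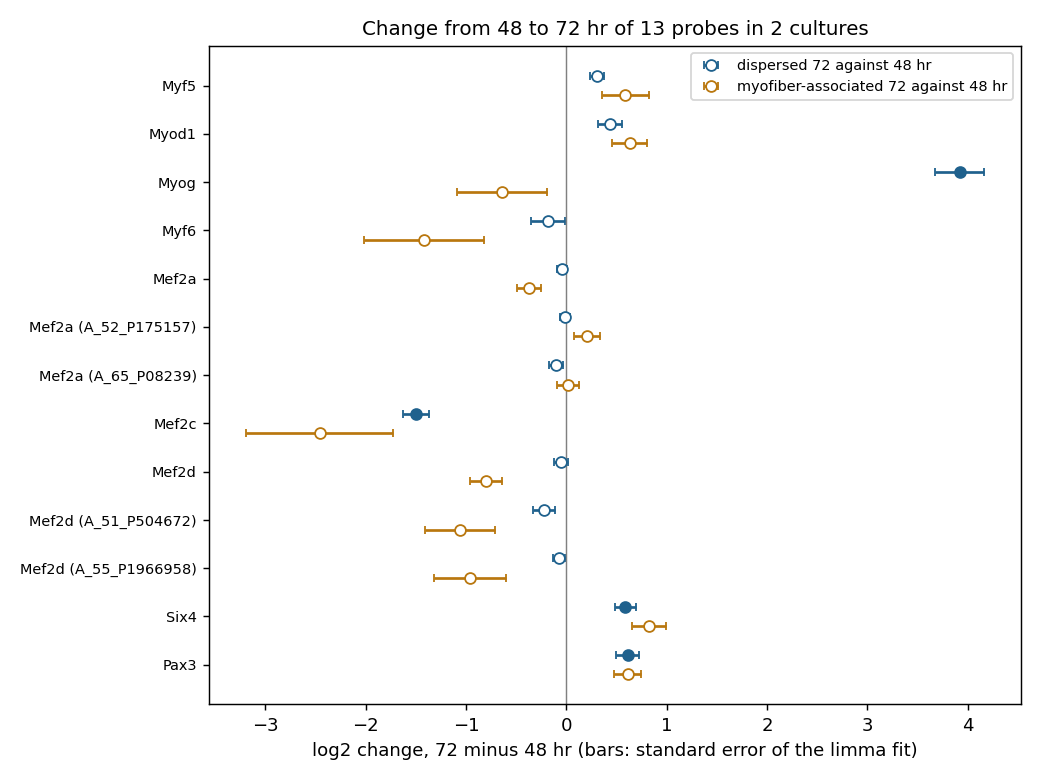
Log2 change from 48 to 72 hr (horizontal axis) of the 13 probes tested in dispersed (blue) and Mf-A (brown) cells, 4 arrays per group, with the standard error of the limma fit over probes. Filled points passed an adjusted p of 0.01. Myog stands out at 3.92 in dispersed cells, and the Mf-A points of Myf6 and Mef2c have the widest errors, 0.60 and 0.73.

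Set against each other at a fixed time, the cultures differed in more of these factors at 48 than at 72 hr, as they did in all genes. At 48 hr 7 of 9 genes passed, 5 higher in Mf-A cells (Myog, Myf6, Mef2c, Mef2d and Mef2a) and 2 lower (Pax3 and Myf5), against 43.2% of all genes. Across probes it was 9 of 13, against 41.1%, and at an adjusted p under 0.05 7 of 9, against 59.4% of genes. At 72 hr 4 of 9 passed, with Myog, Myf6 and Mef2d higher and Pax3 lower, against 27.1% of genes, and 5 of 13 probes, against 26.0%. At an adjusted p under 0.05 it was 6 of 9, against 45.8%. With a normexp background the median difference of all genes at 48 hr was -0.02 in place of -0.12.

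Over the 16 arrays, which fall into 2 cultures on 2 slides, Myog and Myf6 had r = 0.900, and Myf5 and Mef2c r = -0.920. Pax3 ran against Mef2d (r = -0.903) and Myf6 (r = -0.895), and Myod1 was closest to Six4 (r = 0.754). Among the other genes tested, the highest r was with Myom3, a gene of the sarcomere's M-band, for Myog (0.984), followed by Shisa2 (0.980) and Obsl1 (0.978). For Myf6 it was with Ip6k3 (0.999), whose means of 2.19 and 2.07 in dispersed cells lie under the limit of 5 that its median over all arrays passed, Mylk2 (0.998), the myosin light chain kinase of skeletal muscle, and Klhl30 (0.998). Mef2c had Tcp11l2 (0.995), Rgcc (0.992) and Zfp467 (0.992). Rgcc, which regulates the cell cycle, averaged 12.65 and 10.99 in dispersed cells and 16.70 and 13.49 in Mf-A cells at 48 and 72 hr.

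The remaining factors had nearest genes of other kinds. Mef2d had Arih2 (0.981), the translation factor gene Eif1 (0.980) and Eif4a2 (0.977), and Mef2a had Btn1a1 (0.985), Gm10405 (0.983) and Dpysl5 (0.982). Myod1 had Gm11570 (0.950) and Dmpk (0.938), the kinase gene of myotonic dystrophy, among its nearest, and Myf5 had Gpsm2 (0.962), 2610524H06Rik (0.962) and Ccdc34 (0.955). Six4 had Ahsa2 (0.958), Mettl21a (0.954) and Amacr (0.949), and Pax3 had Nans (0.979), Mob3a (0.975) and Stambpl1 (0.974).

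E proteins are the dimer partners of the myogenic regulatory factors, and their genes went different ways. Tcf4 had 13.38 to 13.46 in dispersed cells at 48 hr and 12.46 to 12.71 at 72 hr, a fall with no overlap (log2 change -0.84, SE 0.06, adjusted p = 0.000110). In Mf-A cells it had 12.36 to 12.67 and 12.52 to 12.80, and the difference in change, -1.03 (SE 0.12), had an adjusted p of 0.000443. Tcf3, whose products are E12 and E47, averaged 12.09 and 12.07 in dispersed cells and 11.40 and 11.97 in Mf-A cells at 48 and 72 hr. The changes of Tcf3 differed by -0.59 (SE 0.12, adjusted p = 0.00912). For the brighter probe of Tcf12 the difference in change was -0.37 (SE 0.19, adjusted p = 0.181). That probe averaged 11.82 and 12.09 in dispersed cells and 11.21 and 11.85 in Mf-A cells at 48 and 72 hr. The dimmer Tcf12 probe averaged 10.63 and 10.41 in dispersed cells and 10.01 and 10.83 in Mf-A cells. In dispersed cells the brighter probe thus rose and the dimmer fell, while both rose in Mf-A cells. Of the 3 genes, 1 fell in dispersed cells (median -0.02) and 0 passed in the limma fit in Mf-A cells (median 0.57), while all 3 were lower in Mf-A cells at 48 hr (median -0.68). Of all genes 13.7%, 5.48% and 43.2% passed in these comparisons. The medians of all genes tested were 0.02, 0.06 and -0.12. In level at 72 hr, 0 of the 3 passed (median -0.10), against 27.1% of all genes and a median of -0.02.

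Repressors of these factors include the Id proteins, which tie up E proteins, and Notch targets such as Hey1. Of 22 repressor genes tested, 2 rose and 2 fell in dispersed cells (median 0.06) and 3 rose and 3 fell in Mf-A cells (median 0.19), where of all genes 13.7% and 5.48% passed in either direction. Hey1 fell in dispersed cells by 1.82 (log2 change -1.82, SE 0.19, adjusted p = 0.000379) and Zeb1 by 0.52 (log2 change -0.52), and Snai2 rose by 0.52 and Bhlhe41 by 0.36. In Mf-A cells Id2 rose by 0.93 (SE 0.17, adjusted p = 0.00921) and the histone methyltransferase gene Suv39h1 by 1.13, while Twist1 (-1.37) and Heyl (-0.95) fell. Id3 averaged 15.46 and 15.64 in dispersed cells and 15.05 and 15.84 in Mf-A cells at 48 and 72 hr, and its changes differed by -0.60 (SE 0.10, adjusted p = 0.00251). Id1 averaged 15.01 and 15.02 in dispersed cells and 14.73 and 15.11 in Mf-A cells.

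Genes that act beside or upstream of Six4 and Pax3 moved in both cultures. Of 15 genes tested from the sine oculis, EYA, DACH, PAX, PITX, MEOX and LBX families, 4 rose and 3 fell in dispersed cells (median 0.36) and 5 rose and 1 fell in Mf-A cells (median 0.11), against 13.7% and 5.48% of all genes in either direction. The cofactor gene Eya4 rose by 0.79 in dispersed cells and Eya2 by 1.72 in Mf-A cells. Meox2, a mesodermal homeobox gene, fell in both, with changes of -0.89 and -1.48, and Dach1 fell in dispersed cells (-0.93).

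Pax7, the paralog of Pax3 and hallmark of satellite cells, behaved unlike it. It had 11.28, 10.98, 10.94 and 11.08 in dispersed cells at 48 hr and 11.13, 10.95, 11.29 and 11.67 at 72 hr. In Mf-A cells it had 10.19, 10.53, 9.90 and 10.20 at 48 hr and 12.07, 11.67, 12.10 and 11.71 at 72 hr, all later arrays above the earlier ones. The rise in Mf-A cells was 1.68 (SE 0.16, adjusted p = 0.00110), and the changes differed by -1.49 (SE 0.23, adjusted p = 0.00191). Pitx3 rose there by 2.48 (SE 0.23, adjusted p = 0.000995), with a difference in change of -1.92 (SE 0.27, adjusted p = 0.00112).

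Of 26 cofactor genes tested, 4 rose and 2 fell in dispersed cells (median -0.01) and 1 rose and 1 fell in Mf-A cells (median -0.06), against 13.7% and 5.48% of all genes in either direction. The TEAD genes, whose proteins bind MCAT elements of muscle promoters, were among them: Tead4 rose by 0.63, Tead1 by 0.43 and Tead2 by 0.40 in dispersed cells, and Tead2 rose by 1.25 in Mf-A cells (SE 0.16, adjusted p = 0.00260). Tead2 also differed in its change (-0.85, SE 0.18, adjusted p = 0.00863). Vgll2, a TEAD partner of muscle, fell in both cultures, with changes of -0.61 and -0.59.

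Target genes of these factors, among them Ckm of the fiber list, were counted in both cultures, and their relation to Myog was not tested. Of 45 tested, 18 rose and 3 fell in dispersed cells (median 0.36, against 0.02 over all genes, of which 1499 rose and 1285 fell). In Mf-A cells 7 rose and 0 fell (median -0.41, against 0.06, with 759 up and 354 down). In dispersed cells Mymx, which encodes the fusion peptide myomixer, rose by 3.49 (SE 0.35, adjusted p = 0.000361), the embryonic myosin gene Myh3 by 3.36 (SE 0.49, adjusted p = 0.00215), and the slow troponin genes Tnnt1 and Tnni1 by 2.34 and 2.27. Mf-A cells had a different course of Myog but also raised Mymx by 5.47 (SE 0.42, adjusted p = 0.000573), the fusion gene Mymk by 2.30 and the receptor gene Fgfr4 by 2.22.

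Among the 4 Mf-A arrays at 72 hr, Myh3 ran against the fiber genes. In dispersed cells the array with the highest Myh3 at each time also had the highest fiber sum. At 72 hr, however, that dispersed array (replicate 4) had the lowest median of the 19 fiber genes, 6.97 against 7.76 to 7.99. In Mf-A cells at 48 hr the probe that stands for Myh3 was at background on all 4 arrays, and at 72 hr it had 10.98, 8.32, 11.54 and 7.89, at least 61.8-fold higher. At that bound its place above the median of the target list is the same. Mymx had 10.67, 9.46, 11.04 and 9.04 on the same arrays. Replicates 1 and 3, with the lowest fiber sums, Myf6 and Mef2c, thus had the highest Myh3 and Mymx, and replicates 2 and 4 the reverse. Pax7, Fgfr4 and Mymk were also higher on replicates 1 and 3 than on replicates 2 and 4. Whether these follow from 1 source was not tested.

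**Figure D5:**
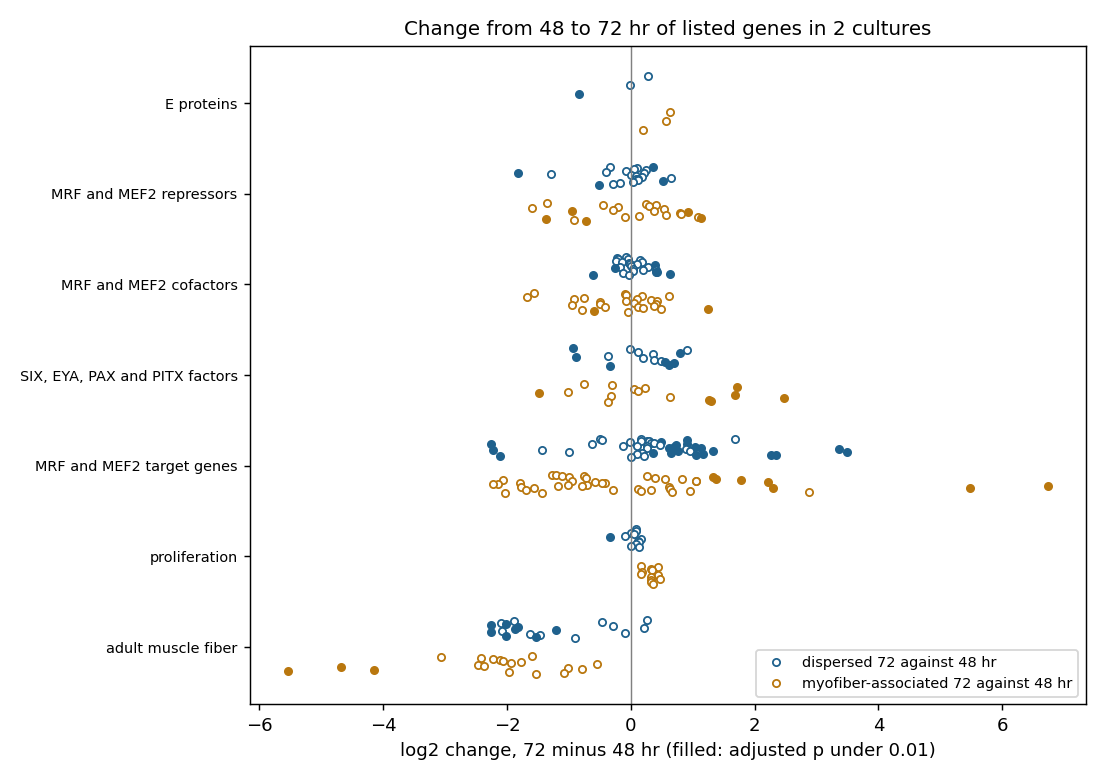
Log2 change from 48 to 72 hr (horizontal axis) of each tested gene of 7 lists in dispersed (blue) and Mf-A (brown) cells, 4 arrays per group. Filled points passed an adjusted p of 0.01. Target genes reach 3.49 (Mymx) in dispersed cells, and in Mf-A cells adult fiber genes reach -5.53 (Myl3).

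The counts of proliferation genes past the threshold lay near the shares of all genes, 13.7% in dispersed and 5.48% in Mf-A cells. Of 12 tested, 0 rose and 1, the replication gene Mcm5, fell in dispersed cells (log2 change -0.34, SE 0.06, adjusted p = 0.00394; median of the list 0.09). In Mf-A cells 0 passed in the limma fit, with all 12 changes above 0 (median 0.33, against 0.06 over all genes). Mki67, the gene of the Ki-67 antigen, averaged 14.33 and 14.49 in dispersed cells and 14.17 and 14.61 in Mf-A cells.

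The marker lists moved with time as follows, where 13.7% of all genes passed in dispersed cells and 5.48% in Mf-A cells. Of the 19 fiber genes 8 fell in dispersed cells (median -1.63) and 3 in Mf-A cells (median -2.06), where Myl3, of slow fibers, fell by 5.53 (log2 change -5.53, SE 0.51, adjusted p = 0.000980). Of 12 satellite cell genes tested 2 rose and 1 fell in dispersed cells (median 0.04) and 4 rose and 1 fell in Mf-A cells (median 0.50), the latter led by Pax7. Cd34 fell there by 1.68 (log2 change -1.68).

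Cell types other than muscle were present in both cultures by their markers and their part in the values of the 9 factors was not tested. Of 12 endothelial genes, with Egfl7 the brightest, 11 fell in dispersed cells (median -1.42) and 7 in Mf-A cells (median -1.89). Their log2 summed signal was 17.15 to 17.58 and 15.71 to 16.23 in dispersed cells and 14.33 to 15.50 and 13.58 to 13.87 in Mf-A cells at 48 and 72 hr. Mef2c, known also from endothelium, fell in dispersed cells beside them, as did 8 of the 19 fiber genes (median -1.63). At 48 hr Mef2c averaged 7.14 in dispersed and 10.15 in Mf-A cells, where the endothelial sum was the lower. The relation of Mef2c to either list was not tested.

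Of 9 fibroblast genes, with Dcn the brightest, 1 fell in dispersed cells (median -0.39) and 3 in Mf-A cells (median -1.38). Their sums were 16.45 to 16.92 and 15.89 to 16.55 in dispersed cells and 16.30 to 17.54 and 15.27 to 16.04 in Mf-A cells. Of 10 leukocyte genes tested, with Itgam the brightest, 1 rose and 3 fell in dispersed cells (median -0.78) and 1 rose in Mf-A cells (median -0.90), with sums from 14.02 to 14.87 over all arrays. Of 6 Schwann cell and melanocyte genes tested 4 fell in dispersed cells (median -0.98) and 0 passed in Mf-A cells in the limma fit (median -0.32). That list had Mitf as its brightest gene, Erbb3 at background on every array and sums of 13.11 to 13.40 and 12.22 to 12.64 in dispersed cells and 12.23 to 12.55 and 12.29 to 12.79 in Mf-A cells.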

How the data were processed

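RNA of 16 samples was read on Agilent one-colour mouse arrays with probes of 60 bases. Per the file headers, the intensity values are spot signals that the scanner software took from each image, subtracted for background and processed. The table deposited with the series holds ratios of the 72-hr arrays, whose log base is not named and which were read as log2 because their slope on the log2 changes computed here was 0.887 to 0.933 (r across probes 0.971 to 0.986, column medians 0.00 to 0.06).

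Processed signals were put on the log2 scale, spots marked as outliers were left out (90 probes), and loess (span 0.3, 4 iterations) brought each array to the average 48-hr profile of the same culture. Quantile normalization over all 16 followed. Spots with the same probe were averaged, and the brightest probe stood for a gene. Genes with a median log2 signal of at least 5 were tested, 20317 genes and 28197 probes of 55681. The annotation of the slides differs at 1849 spots, none of them for the 9 genes, and that of the Mf-A slide was used.

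Groups came from the labels. Comparisons were 72 against 48 hr in each culture, the difference between these changes, and Mf-A against dispersed cells at each time, with limma's moderated t test, two-sided, Benjamini-Hochberg adjusted, at 0.01, and with the exact permutation test of 4 against 4 arrays. SAM, another common test for such arrays, was not run because its package was not at hand. The test was tried on simulated data. On each array 54.0% to 63.5% of probes were well above background and 0 spots were saturated, and the number of arrays limits precision.

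Gene lists were E proteins, repressors, cofactors, sine oculis, EYA, DACH, PAX, PITX, MEOX and LBX factors, target genes and proliferation genes, and markers of adult fibers, satellite cells and myoblasts, endothelial cells, fibroblasts, leukocytes, and Schwann cells and melanocytes. Members and lists were chosen with earlier results of these data known. From each list, up to 4 genes with the largest change among those past the threshold were named in each time comparison, up to 3 genes with the highest r to each member, and Id1, Id2, Id3, Mef2b, Mki67, Pax7, Tcf12 and Tcf3 besides. Among the genes that did not pass the filter were Msc, Dach2, Mstn, Calcr, Erbb3, Dct and Pmel. The gene files name Mymx and Mymk Gm7325 and Tmem8c. Some genes are on 2 lists, as Ckm (fiber and target), Pax7, Cdh15 and Des. The brightest gene of a list is that with the highest mean log2 signal over the 16 arrays.

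Alternatives were a normexp background (offset 50), no filter, a filter by the scanner's well-above-background call, outlier spots kept, quantile normalization without loess, 75th-percentile scaling, averages over a gene's probes, a single fit of all 16 arrays, slide row as a block, a threshold of 0.05, the deposited ratios, and each array left out. Tools were R 4.3.3 with limma 3.58.1, jsonlite 2.0.0 and the package data.table (version 1.17.8), and Python 3.11.15 with matplotlib 3.10.9.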

Additional observations from a re-analysis of the deposited data

Results flagged for a closer look

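In 344 groups of 4 values, those of the 14 probes, the named genes and the summed markers, the gap of the highest or lowest array to its neighbour was set against the range of the group, and 11 groups had a gap past the 95% limit of Dixon's test. Chance alone passes about 1 in 20 groups. On dispersed 72-hr replicate 4 the values were high for the brightest Mef2d probe (12.88 against 12.60 to 12.62, gap over range 0.957), a dimmer Mef2a probe (7.91 against 7.69 to 7.72, 0.864), Id2 (14.71 against 14.43 to 14.47, 0.862) and Mymk (8.71 against 8.30 to 8.35, 0.872). On dispersed 72-hr replicate 3 the leukocyte sum was high (14.20 against 14.05 to 14.07, 0.867), and on dispersed 48-hr replicate 1 Suv39h1 (10.72 against 10.26 to 10.27, 0.979).

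On Mf-A 48-hr replicate 3 Hey1 was low (10.60 against 11.20 to 11.28, 0.875), as was Eya2 (6.50 against 6.93 to 7.01, 0.852). On Mf-A 48-hr replicate 4, the pool of 2 preparations, the fibroblast gene Lum was high (12.45 against 11.79 to 11.90, 0.835) and the satellite cell gene Cdh15 low (11.85 against 12.54 to 12.67, 0.846). On Mf-A 72-hr replicate 3 the endothelial gene Cldn5 was low (7.43 against 9.18 to 9.33, 0.922). Causes were not tested.

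Of 73 genes, 16 had a change over time that differed between the cultures in the limma fit at an adjusted p under 0.01, against 3.45% of all genes. Many of these genes were named for a large change in a culture, which favours such a difference. The change was greater in dispersed than in Mf-A cells for Myog by 4.55 and, among markers, for Myl3 by 4.07 (adjusted p = 0.00530), Myl2 by 2.51 (adjusted p = 0.00508) and Emcn by 2.33 (adjusted p = 0.00370), genes of which the last 3 had negative changes in both cultures. The difference, dispersed minus Mf-A, was negative for Tcf4 (-1.03), Tcf3 (-0.59), Id3 (-0.60), Tead2 (-0.85), Hey1 (-1.54, adjusted p = 0.00471), Fgfr4 (-2.12, adjusted p = 0.00109), Pitx3 (-1.92), Pax7 (-1.49) and Notch3 (-1.71, adjusted p = 0.00390). It was negative as well for Ngfr (-3.54, adjusted p = 0.00253), Ly6a (-1.63, adjusted p = 0.00152) and Laptm5 (-1.64, adjusted p = 0.00827). Culture and slide cannot be told apart in these levels, while each change is within a slide, where time and slide column cannot be told apart.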

How the results depend on the processing

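Of 900 values of the 9 genes' log2 changes under the alternatives and left-out arrays, 827 kept their side of the threshold or, without a test, stayed within 1 SD, 47 lost the call, 24 gained one, 2 without a test moved by more than 1 SD (deposited ratios in dispersed cells: Mef2c -1.30, Myf6 -0.12), and 0 called values changed sign. Values that had not passed did change sign for Pax3 in the difference between cultures (10 of the left-out arrays and 2 other settings), and in a few cases for Mef2a, Mef2d and Myf6. For 72 against 48 hr in dispersed cells, 2 of the 9 genes and 2 of the 13 probes passed with no filter on low signal and 2 and 2 in a single fit of all 16 arrays, and 2 to 4 and 2 to 4 with an array left out. Myog and Mef2c passed without any 1 of the 8 arrays. In Mf-A cells it was 6 genes and 7 probes in the single fit, 5 and 5 at a threshold of 0.05, and 0 to 2 and 0 to 2 with an array left out. The difference between the changes had 2 and 2 at 0.05 and 1 to 2 and 1 to 2 with an array left out.

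Mf-A against dispersed cells had 5 to 7 genes and 7 to 10 probes at 48 hr with an array left out, and at 72 hr 3 to 5 and 3 to 6. At 72 hr 3 probes passed with slide row as a block and 8 at 0.05. The genes behind the calls lost or gained at 0.01 are named in the report. The causes were not tested, except that a filter changes how many genes are adjusted for and the single fit shares the spread of both cultures.

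Over all genes, the number past the threshold ran from 999 to 3137 in dispersed cells and 468 to 5780 in Mf-A cells over the settings, and from 1657 to 2480 and 246 to 2005 with an array left out. For the difference it was 409 to 722 and 292 to 2358, at 48 hr 6527 to 10490 and 6357 to 11144, and at 72 hr 3693 to 6363 and 3277 to 5641. The normexp background moved the median of all genes at 48 hr from -0.12 to -0.02. No paired analysis was possible because the compared groups share no replicate numbers in the titles: numbers shared across cultures belong to different times and mice. Signal over background limits the dimmer Pax3 probe, for which only a bound is given.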
